A study of Homo sapiens with 9 samples.

Results

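The RAB GTPases are the members of 1 gene family, described here across 9 RNA sequencing libraries of MEG-01, an established human megakaryoblast line derived from a blast crisis of chronic myeloid leukaemia. The members were all genes whose symbol is RAB followed by a number, with or without a letter and a further digit, and whose gene type in GENCODE 29 is protein-coding. The pattern matched 71 of the 63241 genes in the deposited tables, of which 8 were pseudogenes, leaving 63 members. The 9 libraries were made from poly(A) RNA of 3 control, 3 As2S2-treated and 3 PMA-treated samples. As2S2 is an arsenic sulfide, the main component of the mineral realgar, and PMA is phorbol myristate acetate, which activates protein kinase C and is widely used to drive megakaryoblast lines towards differentiation. The series concerns the effect of As2S2 on differentiation of megakaryocytes by way of SRC, MEK and ERK, with PMA beside it. No dose, time, clone or passage was given in the labels, all groups are the same line with no further allele or agent named, and whether the 3 libraries of a group came from separate cultures was not stated, so p-values here reflect only the scatter among these libraries, which may be technical.

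RAB proteins are small GTPases that mark membranes. Exchange factors load them with GTP, which lets them recruit effectors such as motors, tethers and fusion factors, and activating proteins return them to the GDP form, which GDI extracts from the membrane. Megakaryocytes use them to build alpha and dense granules, the stores that platelets release: RAB32 and RAB38 deliver cargo to granules related to lysosomes, and RAB27A and RAB27B dock dense granules for secretion.

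Total estimated counts ran from 18200501 to 20366870 per library. Control replicate 2 and As2S2 replicate 1 deviated from their group means in opposite directions (correlation across genes -0.215, the lowest among the pairs of libraries compared), and counts of changed genes without both are given where they differ. The megakaryocyte markers ITGA2B, ITGB3 and GP6 were expressed in all groups, whereas PF4, which encodes platelet factor 4, had no count in As2S2 libraries and 0.0148 ± 0.0257 CPM in control and 0.0359 ± 0.0621 CPM in PMA libraries (SD, n = 3 each). The line is labelled as coming from bone marrow, and these are bulk libraries, in which fewer cells of a type and less RNA per cell cannot be told apart.

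Most of the RAB transcript pool came from a few members of general membrane traffic. On the TPM scale, which is per transcript length, 8 members averaged over 50, 16 lay between 10 and 50, 17 between 1 and 10 and 22 under 1. RAB11A of recycling endosomes led with 160 ± 8.06 TPM in control, 168 ± 21.1 in As2S2 and 243 ± 10.2 in PMA libraries (SD, n = 3 each). RAB5C of early endosomes followed with 135 ± 5.7, 174 ± 13.6 and 129 ± 4.88 TPM. The others of the 8 were RAB13, RAB1B, RAB7A, RAB2A, RAB6B and RAB32. The 2 leaders were thus ordered alike in control and PMA libraries, while in As2S2 libraries their levels differed by less than the spread between replicates. Together the 8 gave 60.4% ± 0.436 of all RAB TPM in control, 62.7% ± 0.814 in As2S2 and 68.1% ± 0.611 in PMA libraries. The summed TPM of the 63 members changed little, at 1233 ± 31.8 in control, 1277 ± 22.9 in As2S2 and 1228 ± 30.4 in PMA libraries. RABs of granules and regulated secretion made up 7.37% ± 0.177 of the pool in control, 6.16% ± 0.227 in As2S2 and 5.77% ± 0.0493 in PMA libraries, lower in both treated groups by more than the spread between replicates. RAB32 alone was 5.28% ± 0.191, 4.5% ± 0.271 and 4.24% ± 0.124 of the pool, and the 10 others together 2.09% ± 0.0656, 1.66% ± 0.0745 and 1.52% ± 0.16, so most of the share and of its difference was RAB32. The late endosome share was also lower in both treated groups, at 9.23% ± 0.272 in control, 7.97% ± 0.0666 in As2S2 and 8.57% ± 0.251 in PMA libraries. So was the reticulum and Golgi share, the largest in control, at 28.8% ± 0.458, 27.6% ± 0.577 and 26.1% ± 0.404. The recycling endosome share was higher on average in both, at 24.2% ± 0.265, 25.0% ± 1.23 and 28.1% ± 0.321.

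**Figure D1:**
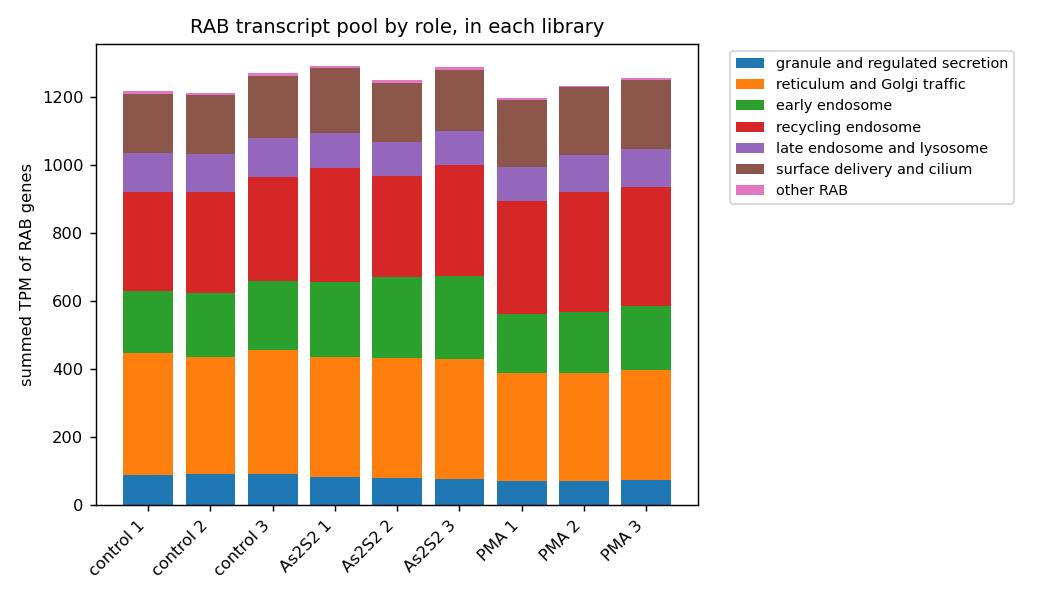
Summed TPM of the RAB genes in each library (y axis), stacked by the role of the gene, for control, As2S2 and PMA replicates 1 to 3 (x axis). Bars reach about the same height in all groups, while the granule and regulated secretion share falls from 7.37% on average in control to 5.77% in PMA libraries.

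Of the 63 members, 50 had enough counts to be tested among 14592 genes, and 13 did not. RAB40A had no count in any library. RAB41, RAB17, RAB36, RAB19, RAB6C and RAB25 had 4 counts or fewer over all 9 libraries. RAB34, RAB3C, RAB26, RAB42, RAB39A and RAB9B had 7, 9, 10, 10, 23 and 65 counts over the 9 libraries. RAB26, a RAB of secretory granules, had 2 counts in control, 0 in As2S2 and 8 in PMA libraries. A count of 0 allows up to 3 counts, which is 0.154 to 0.16 CPM in an As2S2 library, so 0 in a single library does not exclude a level up to that. RAB6A, RAB6C and RAB6D are near-identical copies, and the sources used here do not say how their shared reads were divided.

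With As2S2, 16 of the 50 tested members rose and 10 fell by edgeR's quasi-likelihood test at an adjusted p under 0.05, and 24 did not pass. Among all genes tested, 20.3% rose and 19.6% fell (39.9% in all), so the share of members that rose, 32%, was above that of all genes and the share that fell, 20%, was near it. The median log2 fold change was 0.12 over the members and 0.00 over all genes. With PMA, 26 members rose, 7 fell and 17 did not pass, against 30.8% higher and 31.1% lower (61.9% in all) among all genes. The median was 0.24 over the members and 0.01 over all genes, and the median size of a change was smaller in the family (0.35) than over all genes (0.51). Directly compared, As2S2 libraries had 13 members higher and 23 lower than PMA libraries, against 30.9% and 30.6% (61.4% in all) of all genes. In the authors' deposited table, 11 of the 63 members were called higher and 6 lower with As2S2, and 22 higher and 7 lower with PMA. Of the genes given an adjusted p under 1 there, 14.3% were called higher and 14.4% lower with As2S2, and 22.0% and 22.8% with PMA. The members were counted over all 63, whatever their adjusted p, so the bases of the 2 counts are unlike.

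The count of members that rose depended on the scale. On TPM without centring, the median over all genes shifted by -0.26 (TPM + 1) or -0.40 (TPM + 0.1) with PMA, and 7 members were then called higher and 21 or 22 lower. Among all genes, 13.5% were called higher and 48.1% lower on log2(TPM + 0.1), so the 7 higher and 22 lower of 50 members, 24.1% of their calls being higher against 21.9% of all calls, were near the share over all genes. The 7 were RAB11A, RAB13, RAB1A, RAB30, RAB31, RAB38 and RAB7B, each also called higher on counts. The 7 members that fell on counts, RAB27A, RAB33B, RAB37, RAB39B, RAB3D, RAB44 and RAB8A, were called lower on every TPM scale tested. RAB14, RAB28, RAB5B and RAB6B were called higher on counts and lower on TPM without centring. With TPM centred on the median gene, 18 of the 26 remained called higher and none was called lower. With As2S2, 7 or 6 of the 16 remained called higher on TPM without centring, and RAB13, RAB1B, RAB2B, RAB3B, RAB4B and RAB5C were among them on both pseudocounts. On log2(TPM + 0.1), 6 members were then higher and 12 lower with As2S2, against 11.4% higher and 20.5% lower among all genes. Changes below are on counts scaled by TMM, relative to the bulk of genes.

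**Figure D2:**
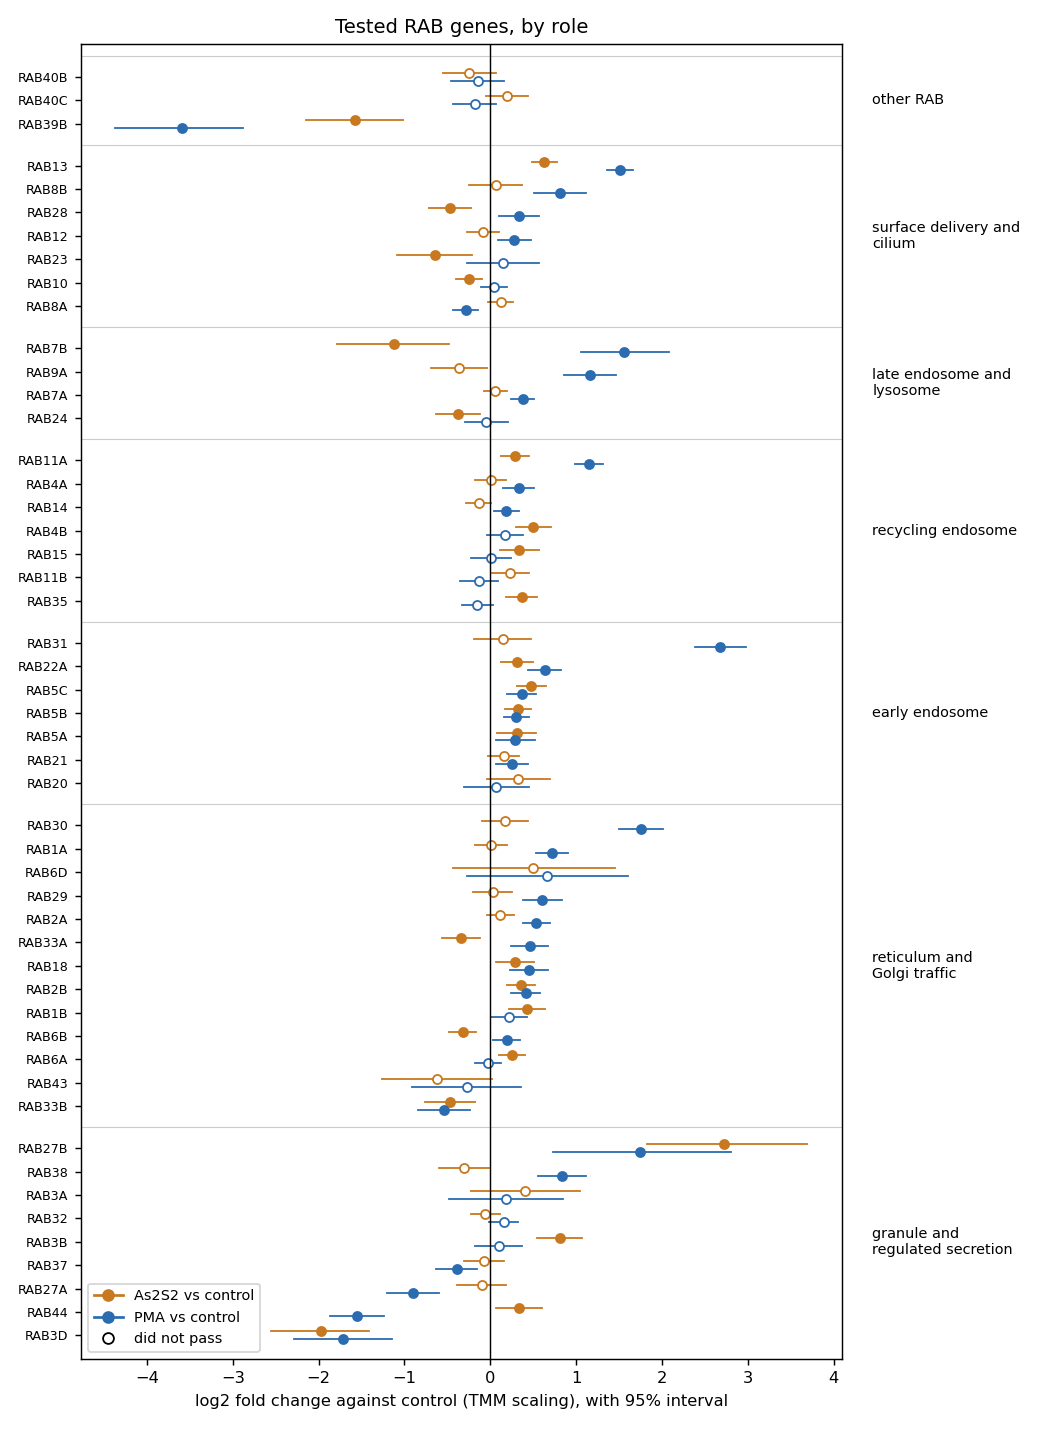
Log2 fold change against control (x axis, TMM scaling, with 95% interval) of the 50 tested RAB genes grouped by role (y axis), for As2S2 (orange) and PMA (blue). Filled points passed the test and open points did not; RAB31 lies furthest right with PMA at 2.68, RAB39B furthest left at -3.60, and on TPM without centring the PMA values shift down so that 7 members are called higher.

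The 2 treatments share their control libraries, so their calls are set side by side without a test of likeness. RAB11A, RAB13, RAB18, RAB22A, RAB27B, RAB2B, RAB5A, RAB5B and RAB5C, 9 members, rose with each on counts; of these, RAB13 was called higher with each on TPM without centring. RAB33B, RAB39B and RAB3D fell with each. RAB28, RAB33A, RAB6B and RAB7B fell with As2S2 and rose with PMA, where RAB28 and RAB6B turn lower and RAB33A is not called on TPM without centring. RAB44, a large RAB with EF-hand domains found in haematopoietic cells, rose with As2S2 and fell with PMA. Neither treatment moved RAB32, RAB11B, RAB20, RAB3A, RAB40B, RAB40C, RAB43 or RAB6D past the threshold.

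The sequences upstream of the start site are shown for 3 granule RABs and for 3 members of general traffic with large or abundant responses to PMA. They are the 250 bases before the RefSeq start on build GRCh38.p14, 5′ to 3′ on the strand of the gene, and RAB38 is not among the 50 members with such a window. Capitals mark matches, on either strand, to 5 short motifs. The AP-1 motif was searched as TGANTCA. For the E-box the letters were CACGTG. Factors of the GATA family were given the letters AGATAA. Factors of the ETS family were given the letters CCGGAAG. The antioxidant element was searched as TGACNNNGC, which can overlap the AP-1 letters in 1 stretch.
RAB27A, chr15:55319124-55319373, minus strand: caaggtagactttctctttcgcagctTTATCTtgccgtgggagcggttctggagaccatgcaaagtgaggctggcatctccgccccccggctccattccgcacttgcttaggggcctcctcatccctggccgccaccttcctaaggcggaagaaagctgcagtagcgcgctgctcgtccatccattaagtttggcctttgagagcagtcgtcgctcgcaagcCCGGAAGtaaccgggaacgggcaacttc
RAB27B, chr18:54717607-54717856, plus strand: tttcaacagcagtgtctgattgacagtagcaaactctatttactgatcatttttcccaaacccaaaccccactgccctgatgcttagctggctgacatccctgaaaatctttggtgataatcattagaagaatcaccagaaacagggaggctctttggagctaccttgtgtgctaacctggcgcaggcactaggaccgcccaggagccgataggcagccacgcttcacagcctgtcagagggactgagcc
RAB32, chr6:146543583-146543832, plus strand: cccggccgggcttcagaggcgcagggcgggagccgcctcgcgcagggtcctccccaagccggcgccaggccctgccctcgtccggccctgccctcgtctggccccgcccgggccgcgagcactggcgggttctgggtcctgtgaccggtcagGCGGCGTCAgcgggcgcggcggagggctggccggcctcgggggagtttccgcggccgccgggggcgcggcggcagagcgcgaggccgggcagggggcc
RAB31, chr18:9708051-9708300, plus strand: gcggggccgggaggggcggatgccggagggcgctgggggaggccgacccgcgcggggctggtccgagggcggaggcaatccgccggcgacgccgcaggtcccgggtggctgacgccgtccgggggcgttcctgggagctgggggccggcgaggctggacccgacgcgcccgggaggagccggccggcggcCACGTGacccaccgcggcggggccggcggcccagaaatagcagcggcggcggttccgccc
RAB13, chr1:153986340-153986589, minus strand: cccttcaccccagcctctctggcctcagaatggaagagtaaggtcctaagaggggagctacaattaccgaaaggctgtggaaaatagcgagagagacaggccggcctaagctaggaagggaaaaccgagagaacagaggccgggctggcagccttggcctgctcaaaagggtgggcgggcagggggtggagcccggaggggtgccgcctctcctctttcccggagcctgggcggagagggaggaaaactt
RAB11A, chr15:65869241-65869490, plus strand: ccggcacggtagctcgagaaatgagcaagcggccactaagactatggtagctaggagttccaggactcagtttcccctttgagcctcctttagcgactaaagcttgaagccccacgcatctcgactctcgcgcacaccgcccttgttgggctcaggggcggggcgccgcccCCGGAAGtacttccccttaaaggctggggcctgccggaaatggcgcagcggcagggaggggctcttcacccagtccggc
RAB31 held the E-box letters 60 bases before its start, RAB27A held GATA letters on the minus strand at 224 and ETS letters at 28, RAB11A held ETS letters at 79, and RAB32 held the antioxidant letters on the minus strand at 98. None of the 5 was found in the windows of RAB27B and RAB13. The windows of RAB31 and RAB32 were 82.0% G and C, against 50.4% for RAB27B. Over all 50 windows, the AP-1 letters stood in 2 (4.0%, against 6.6% of 27305 RefSeq windows), the E-box in 5 (10% against 6.49%), GATA in 3 (6.0% against 9.37%), ETS in 7 (14.0% against 8.82%) and the antioxidant letters in 8 (16% against 11%). The AP-1 letters stood in the windows of RAB3B and RAB5B. A match is a run of letters, and the absence of one says only that the letters are not in the window.

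Among the RABs of granules and regulated secretion, 9 of 11 were tested. With As2S2 3 rose (RAB27B, RAB3B and RAB44) and 1 fell (RAB3D), 33.3% and 11.1% against 20.3% and 19.6% of all genes. With PMA 2 rose (RAB27B and RAB38) and 4 fell (RAB27A, RAB3D, RAB44 and RAB37), 22.2% and 44.4% against 30.8% and 31.1%. On log2(TPM + 0.1) without centring, called here the uncentred TPM scale, the counts were 1 and 3 with As2S2 and 1 and 5 with PMA. On that scale 11.4% of all genes were higher and 20.5% lower with As2S2, and 13.5% and 48.1% with PMA. RAB27A (ENSG00000069974) stood at 13.4, 10.6 and 12.1 CPM in control replicates 1 to 3, at 12.9, 9.72 and 11 with As2S2 and at 5.74, 6.93 and 6.56 with PMA. The PMA libraries all lay below the others, which overlapped each other. RAB27A fell with PMA (log2 fold change -0.90 ± 0.14 (SE), adjusted p 4.17e-05) and did not pass with As2S2 (-0.10 ± 0.13, adjusted p 0.588). As2S2 libraries were higher than PMA libraries by 0.80 ± 0.15 (adjusted p 0.000153).

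RAB27B (ENSG00000041353), the dense granule partner of RAB27A, was rare in every library. It held 0.37, 0.155 and 0.178 CPM in the control libraries, 1.25, 1.51 and 2.04 under As2S2 and 0.493, 1.16 and 0.753 under PMA, from 15, 93 and 42 counts in all. No treated library overlapped the control libraries. The ratio of pooled counts, corrected for library totals, was 6.38 (95% interval 3.68 to 11.9) with As2S2 and 2.84 (1.55 to 5.52) with PMA, intervals that cover counting error only. The log2 fold changes were 2.73 ± 0.44 (adjusted p 0.000126) and 1.74 ± 0.49 (adjusted p 0.00481). On TPM these calls were mostly lost. The deposited TPM were 0.05, 0.15 and 0.12 in control, 0.14, 0.16 and 0.22 with As2S2 and 0.25, 0.1 and 0.26 with PMA, where the groups overlapped. The log2(TPM + 0.1) differences without centring did not pass, at 0.43 with As2S2 (adjusted p 0.303) and 0.54 with PMA (adjusted p 0.135). With TPM centred on the median gene, the As2S2 difference of 0.53 did not pass (adjusted p 0.21), whereas RAB27B was called higher with PMA (0.94). The ratio of count to TPM, which follows the transcript length assigned to a gene, was 1.91 log2 units higher in As2S2 than in control libraries, and its range over the 9 libraries was 3.15, against a median of 0.21 over all genes.

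RAB32 (ENSG00000118508) was the most abundant of the granule RABs, at 65.1 ± 1.24 TPM in control libraries (SD, n = 3). Its levels were 61.2, 70.0 and 61.9 CPM in the control libraries, 62.6, 64.3 and 58.7 under As2S2 and 69.5, 74.5 and 71.0 under PMA. Control overlapped both treated groups, and neither change passed on counts (-0.06 ± 0.08, adjusted p 0.607, and 0.16 ± 0.08, adjusted p 0.0966). With PMA it was called higher under upper-quartile scaling (adjusted p 0.0451) and without control replicate 2 (adjusted p 0.023). On TPM, control libraries ran from 64.0 to 66.4, above As2S2 (54.3 to 59.4) and PMA libraries (49.1 to 53.7), and RAB32 was called lower with each treatment without centring (-0.18, adjusted p 0.0487, and -0.32, adjusted p 0.00111). Its direction with PMA thus turned with the scale. The difference of -0.21 ± 0.08 between As2S2 and PMA passed at an adjusted p of 0.0282, and turned to 0.14 on TPM without centring.

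RAB38 (ENSG00000123892), which shares cargo and exchange factor with RAB32, had 9.7, 11.3 and 11.6 CPM in the control libraries, 9.7, 7.91 and 8.68 under As2S2 and 22.2, 16.3 and 19.6 under PMA. All PMA libraries were above all others. It rose by 0.83 ± 0.13 with PMA (adjusted p 3.62e-05) and by 0.36 on log2(TPM + 0.1) (adjusted p 0.0369). With As2S2 it did not pass (-0.31 ± 0.14, adjusted p 0.0833), was called lower on log2(TPM + 0.1) without centring (-0.43, adjusted p 0.033) and was called lower on counts without As2S2 replicate 1 (adjusted p 0.0492). As2S2 libraries were lower than PMA libraries by a log2 fold change of -1.14 ± 0.13 (adjusted p 1.7e-06).

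**Figure D3:**
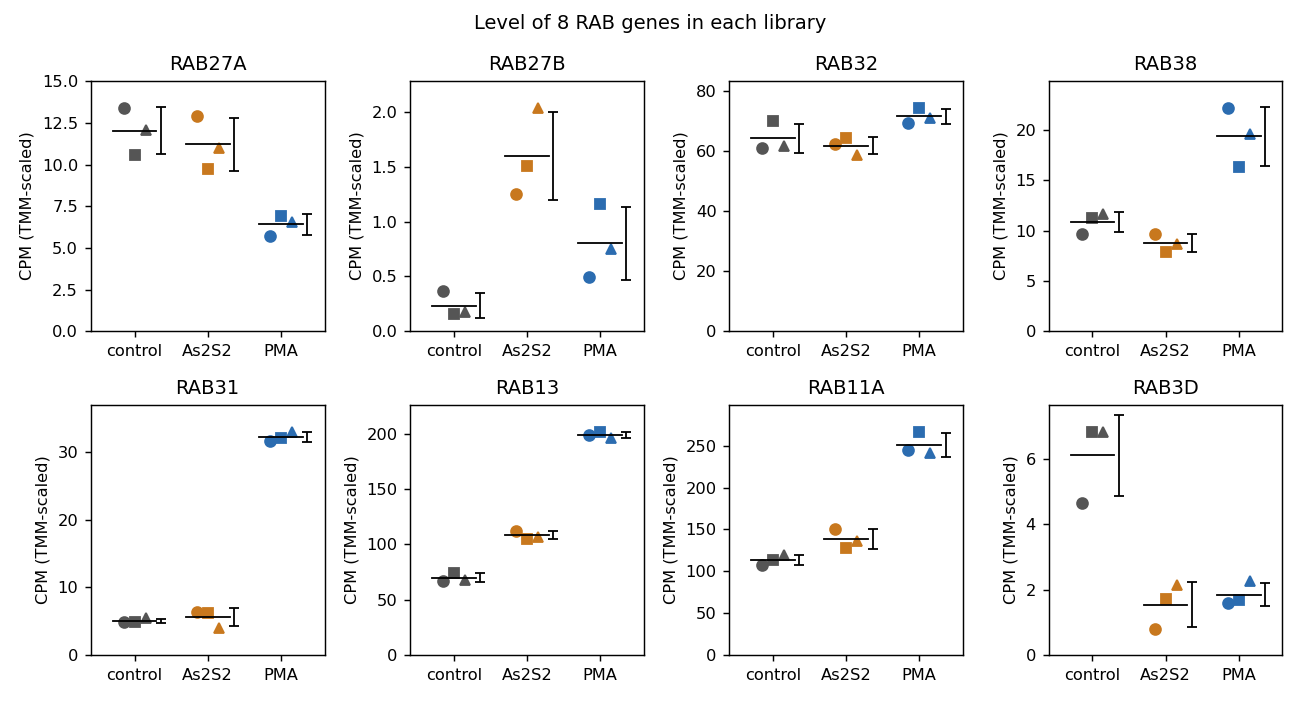
Level of 8 RAB genes in CPM scaled by TMM (y axis, from 0) in each library of the control, As2S2 and PMA groups (x axis). Circles, squares and triangles are replicates 1, 2 and 3, the horizontal line is the mean and the bar beside it the SD (n = 3); RAB27A is low and RAB38, RAB31, RAB13 and RAB11A are high in all 3 PMA libraries, while RAB3D is low in both treated groups.

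The RAB3 proteins act in regulated exocytosis. RAB3D, found on secretory granules of many cells, had 4.67, 6.83 and 6.85 CPM in the control libraries, 0.783, 1.71 and 2.14 under As2S2 and 1.6, 1.68 and 2.26 under PMA. Every treated library was below every control library. RAB3D fell by 1.98 on the log2 scale with As2S2 (SE 0.27, adjusted p 2.97e-05) and by 1.72 with PMA (SE 0.27, adjusted p 3.51e-05), and the treatments did not differ past the threshold (adjusted p 0.491). RAB3B went the other way with As2S2, from 7.82 ± 1 CPM in control to 13.7 ± 0.557 (0.81 ± 0.12, adjusted p 8.19e-05), and was 8.38 ± 0.57 CPM with PMA (adjusted p 0.523). RAB3A stayed between 1.02 and 2.01 CPM in the 9 libraries and passed in no comparison.

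RAB44 had 6.88, 8.17 and 8.23 CPM in the control libraries, 9.39, 9.87 and 10.1 under As2S2 and 2.78, 2.43 and 2.74 under PMA, with no overlap between any groups. It fell by 1.55 on the log2 scale with PMA (SE 0.15, adjusted p 1.8e-07) and was just inside the threshold with As2S2 (0.34 ± 0.13, adjusted p 0.0451), a call lost with DESeq2 (adjusted p 0.0925) and when single libraries were left out. RAB37, of secretory granules, fell with PMA from between 19.1 and 20.8 CPM to between 14.4 and 16.4 (-0.39 ± 0.11, adjusted p 0.00651).

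RABs of the reticulum and Golgi apparatus rose in 8 (61.5%) and fell in 1 (7.7%) of 13 tested members with PMA, against 30.8% and 31.1% of all genes. With As2S2, 4 rose (30.8%) and 3 fell (23.1%), against 20.3% and 19.6% of all genes. On the uncentred TPM scale, 2 were called higher and 4 lower with PMA, and 2 and 3 with As2S2. RAB30, a Golgi RAB, had 9.15, 7.6 and 9.39 CPM in the control libraries, 11.5, 9.06 and 8.99 under As2S2 and 31.1, 28.4 and 28.8 under PMA. The PMA libraries were all above the other 6, and RAB30 rose by 1.75 ± 0.12 with PMA (adjusted p 3.17e-09), while the As2S2 value of 0.17 ± 0.13 did not pass. RAB1A and RAB1B, which act between reticulum and Golgi, differed: RAB1A rose with PMA (0.71 ± 0.09, adjusted p 2.74e-06) from 49 ± 3.79 to 80.5 ± 3.15 CPM, and RAB1B rose with As2S2 (0.42 ± 0.10, adjusted p 0.00263) from 180 ± 25 to 241 ± 30.4 CPM although the libraries overlapped. With PMA, RAB1B was just outside the threshold on counts (0.22, adjusted p 0.0636). It passed as higher under the replicate block (adjusted p 0.0243), upper-quartile scaling (0.0335), the stricter filter (0.0441), a fit of only these groups (0.029), and without control replicate 2 (0.00195) or As2S2 replicate 1 (0.028), and it passed as lower on log2(TPM + 0.1) without centring (-0.27, adjusted p 0.021). RAB2A rose with PMA (0.54 ± 0.07, adjusted p 9.8e-06), which turned to -0.02 on TPM without centring.

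RAB6B fell with As2S2 from 143, 160 and 149 CPM to 109, 124 and 128 (-0.32 ± 0.08, adjusted p 0.00278), and RAB6A, its relative in transport from the Golgi, rose from between 112 and 121 to between 130 and 149 CPM (0.26 ± 0.07, adjusted p 0.00948). With PMA, RAB6B was just inside the threshold (0.19 ± 0.07, adjusted p 0.035) and -0.33 on TPM without centring. RAB33B, which takes part in Golgi traffic and autophagy, fell with As2S2 (-0.47 ± 0.14, adjusted p 0.0129) and PMA (-0.54 ± 0.14, adjusted p 0.00333), and its relative RAB33A was called lower with As2S2 (-0.34 ± 0.11) and higher with PMA (0.46 ± 0.10; -0.02, adjusted p 0.881, on log2(TPM + 0.1) without centring). RAB18, of lipid droplets and the reticulum, was just inside the threshold with As2S2 (0.28 ± 0.11, adjusted p 0.0414) and lost the call without As2S2 replicate 1 (adjusted p 0.185).

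RABs of early endosomes rose in 4 of 7 (57.1%) with As2S2 and in 6 of 7 (85.7%) with PMA, and none fell in either test. Over all genes, 20.3% rose and 19.6% fell with As2S2, and 30.8% and 31.1% with PMA. On the uncentred TPM scale, by contrast, 1 was called higher with As2S2, and 1 higher and 1 lower with PMA. RAB31, which works between the Golgi and early endosomes, changed more than any other member that rose with PMA. Its levels were 4.85, 4.81 and 5.43 CPM in the control libraries, 6.42, 6.24 and 4.03 under As2S2 and 31.7, 32.1 and 33.1 under PMA. The PMA libraries stood far above the others, at a log2 fold change of 2.68 ± 0.14 (6.41-fold, adjusted p 1.16e-10), which was 1.91 (3.75-fold) on log2(TPM + 0.1) without centring and 2.31 (4.94-fold) with centring, and As2S2 and control libraries overlapped (0.14 ± 0.16, adjusted p 0.502). RAB5C, the most abundant RAB5, rose from 201, 237 and 210 CPM to 268, 314 and 321 with As2S2 (0.48 ± 0.08, adjusted p 0.000187) and to 278, 283 and 274 with PMA (0.37 ± 0.08, adjusted p 0.000841; -0.07 on log2(TPM + 0.1) without centring). The RAB5 proteins steer fusion of early endosomes. RAB5A and RAB5B rose with both treatments by 0.29 to 0.32, RAB5A with adjusted p of 0.0331 and 0.0282; its PMA value was -0.18 and RAB5B was called lower on log2(TPM + 0.1) without centring.

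Of the recycling endosome RABs, 4 of 7 tested rose with As2S2 (RAB4B, RAB35, RAB15 and RAB11A) and 3 with PMA (RAB11A, RAB4A and RAB14), and none fell on counts. These were 57.1% and 42.9%, against 20.3% and 30.8% of all genes, of which 19.6% and 31.1% fell. On the uncentred TPM scale 1 was called higher and 1 lower with As2S2, and 1 higher and 5 lower, RAB14 among them, with PMA. RAB11A, which returns receptors to the surface, had 107, 113 and 119 CPM in the control libraries, 151, 128 and 136 under As2S2 and 245, 267 and 241 under PMA. The 3 groups did not overlap. RAB11A rose by 1.15 ± 0.08 with PMA (adjusted p 2.31e-09), a 2.22-fold rise in the most abundant member, and by 0.29 ± 0.08 with As2S2 on counts (adjusted p 0.00702). The As2S2 call was lost on log2(TPM + 0.1), at 0.06 without centring (adjusted p 0.612) and 0.17 with centring (adjusted p 0.148). RAB11B stood at 61.6, 78.7 and 59.3 CPM in control and 62.9, 60.3 and 59.4 with PMA and did not pass (-0.13 ± 0.10, adjusted p 0.295). RAB4B stood at 20.6 ± 2.19 CPM in control and rose to 29.1 ± 0.289 with As2S2 (0.50 ± 0.10, adjusted p 0.000652), and RAB35 from 82.6, 95.2 and 88.6 to 101, 120 and 122 CPM (0.36 ± 0.09, adjusted p 0.00277).

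Late endosome and lysosome RABs went apart between treatments. Of 4 tested, 2 fell with As2S2 (RAB7B and RAB24), 3 rose with PMA (RAB7A, RAB7B and RAB9A), and all 4 were lower with As2S2 than with PMA. Over all genes, 19.6% fell with As2S2, 30.8% rose with PMA and 30.6% were lower with As2S2 than with PMA. On the uncentred TPM scale, 1 was called lower with As2S2, 1 higher and 1 lower with PMA, and 2 lower with As2S2 than with PMA. RAB7B, of late endosomes, had 1.43, 1.19 and 1.11 CPM in the control libraries, 0.574, 0.755 and 0.366 under As2S2 and 3.82, 3.76 and 3.5 under PMA. The groups did not overlap, at -1.13 ± 0.31 with As2S2 (adjusted p 0.00778) and 1.56 ± 0.24 with PMA (adjusted p 3.05e-05); on log2(TPM + 0.1) the As2S2 value did not pass (adjusted p 0.0506). RAB9A, which returns mannose phosphate receptors to the Golgi, had 8.55, 10.4 and 8.9 CPM in the control libraries, 9.34, 6.34 and 5.91 under As2S2 and 19.8, 21.7 and 20.7 under PMA, rising by 1.16 ± 0.15 with PMA (adjusted p 3.33e-06; 0.0593 on log2(TPM + 0.1)). With As2S2 it was the member next outside the threshold (-0.37, adjusted p 0.0737) and passed without As2S2 replicate 1 (-0.59, adjusted p 0.00265). RAB7A, the main RAB of late endosomes, rose with PMA by 0.38 ± 0.06 (adjusted p 6.22e-05), and its value on log2(TPM + 0.1) without centring was -0.10.

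Among RABs of surface delivery and the cilium, RAB13 and RAB8B rose most with PMA on counts. RAB13, found at junctions and in vesicles bound for the surface, had 67.0, 74.2 and 68.0 CPM in the control libraries, 112, 105 and 107 under As2S2 and 199, 202 and 196 under PMA. The groups did not overlap, and RAB13 rose by 0.63 ± 0.07 with As2S2 (adjusted p 3.2e-06) and 1.51 ± 0.07 with PMA (adjusted p 1.77e-11). RAB8B rose with PMA (0.82 ± 0.14, adjusted p 0.000113) and RAB8A fell (-0.29 ± 0.07, adjusted p 0.00159). The RAB8B call was lost on TPM without centring (2.71 ± 0.535 TPM in control and 3.64 ± 0.257 in PMA libraries) and kept with centring. Of the 7 tested, 1 rose (14.3%) and 3 fell (RAB10, RAB23 and RAB28, 42.9%) with As2S2, against 20.3% and 19.6% of all genes. With PMA 4 rose (57.1%) and 1 fell (14.3%), against 30.8% and 31.1% (1 higher and 3 lower on the uncentred TPM scale). RAB23, of ciliary signalling, fell with As2S2 from 3.47, 2.48 and 3.74 to 2.3, 1.86 and 2.04 CPM (-0.65 ± 0.21, adjusted p 0.0203), and the call was lost without control replicate 1 or 3 or As2S2 replicate 2 or 3. RAB28, of cilia, fell with As2S2 from 11.6, 12.3 and 13.3 to 9.65, 8.01 and 9.2 CPM (-0.47 ± 0.12, adjusted p 0.00383; -1.44 on log2(TPM + 0.1) without centring), while its TPM in control was 6.83 in replicate 1 and 17.6 and 18.4 in replicates 2 and 3.

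Of the members left over, RAB39B, which has been linked to autophagy and neuronal traffic, fell furthest. It had 3.93, 3.83 and 2.94 CPM in the control libraries, 1.41, 0.755 and 1.41 under As2S2 and 0.247, 0.404 and 0.215 under PMA, from 225, 69 and 15 counts. The 3 groups did not overlap, at -1.58 ± 0.27 with As2S2 (adjusted p 0.000218), -3.60 ± 0.35 with PMA (adjusted p 1.77e-07) and 2.02 ± 0.41 between As2S2 and PMA (adjusted p 0.000364). On log2(TPM + 0.1) without centring the PMA value was -2.75 and that between As2S2 and PMA 1.32.

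Ratios between the counts of related members in the same library do not depend on the scaling of libraries. In 10 pairs and 3 comparisons, 30 in all, the smallest p that an exact two-sided permutation test of 3 against 3 libraries can give is 0.1 (0.143 after Benjamini-Hochberg adjustment), so none can pass the threshold. The log2 ratio of RAB11A to RAB11B was 0.801, 0.519 and 1.007 in control and 1.963, 2.144 and 2.024 in PMA libraries, a rise of 2.41-fold with no overlap. The ratio of RAB8B to RAB8A rose 2.15-fold with PMA, from -3.13 ± 0.10 to -2.03 ± 0.17 on the log2 scale, also with no overlap, and that of RAB33A to RAB33B 1.99-fold. RAB32 exceeded RAB38 by 2.57 ± 0.13 log2 units in control, 2.82 ± 0.18 in As2S2 and 1.90 ± 0.27 in PMA libraries. The excess of RAB27A over RAB27B was 5.62 ± 0.46 in control, 2.81 ± 0.48 in As2S2 and 3.03 ± 0.45 in PMA libraries, and it moved by -0.92 and -1.96 rather than -2.82 and -2.59 when taken on TPM + 0.1. With As2S2 the ratio of RAB4A to RAB4B fell from 1.26 ± 0.11 to 0.76 ± 0.10, and that of RAB6A to RAB6B rose from -0.38 ± 0.12 to 0.20 ± 0.21, where PMA gave -0.59 ± 0.04.

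**Figure D4:**
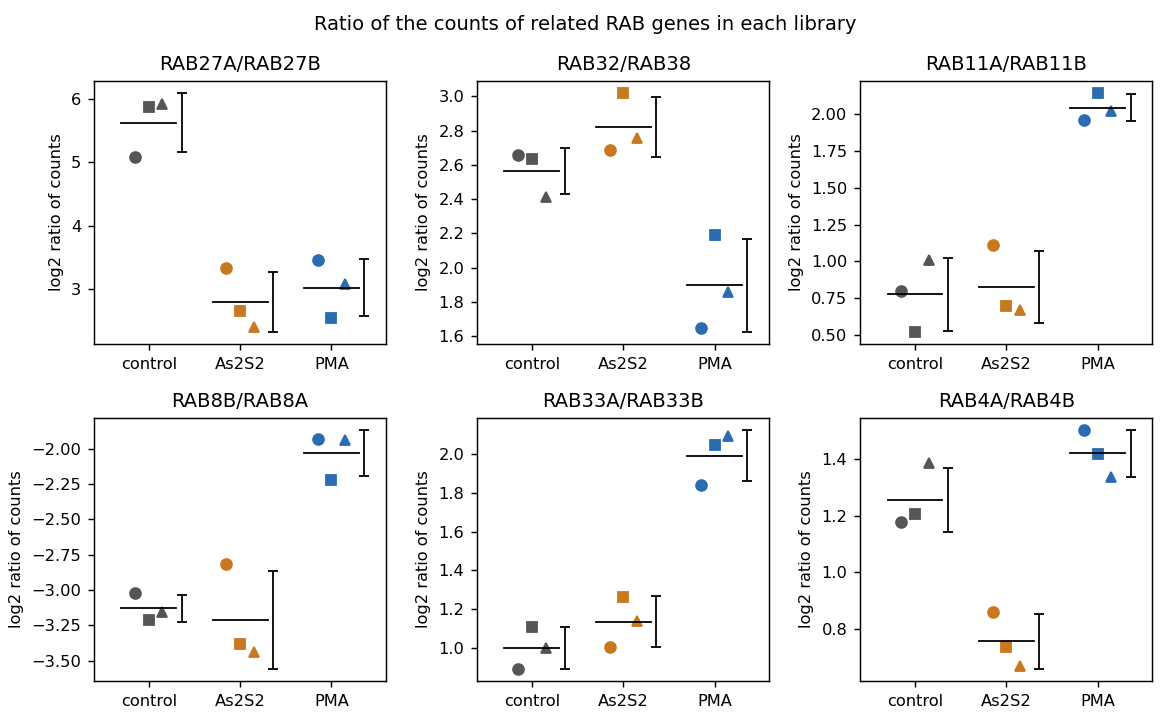
Log2 ratio of the counts of related RAB genes (y axis) in each library of the control, As2S2 and PMA groups (x axis). Symbols are replicates 1 (circle), 2 (square) and 3 (triangle), with the mean as a line and the SD as a bar (n = 3); the RAB11A to RAB11B ratio is between 1.96 and 2.14 in PMA libraries and at most 1.11 in the others.

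The genes that load, unload and read RABs were tallied as lists. Over all genes on counts, 30.8% rose and 31.1% fell with PMA, and 20.3% rose and 19.6% fell with As2S2. On the uncentred TPM scale, fewer genes of each list were called higher with PMA, at 1 of 8 prenylation and chaperone genes, 2 of 30 exchange factors, 0 of 33 activating proteins, 2 of 30 effectors, 3 of 21 granule biogenesis genes and 3 of 18 fusion genes, against 3, 18, 26, 22, 12 and 7 lower, where 13.5% of all genes were called higher and 48.1% lower. With As2S2 the same lists had 2, 4, 2, 5, 1 and 5 genes called higher and 1, 6, 4, 5, 5 and 2 lower on that scale, against 11.4% and 20.5% of all genes. Of 8 prenylation and chaperone genes, 5 rose and 3 fell with PMA, and 3 rose and 1 fell with As2S2. CHM and CHML, the escort proteins that present RABs for lipid attachment, fell with PMA by 1.61 (SE 0.28, adjusted p 0.000112) and 1.77 (SE 0.20, adjusted p 1.11e-06) on the log2 scale. The CHM call was lost on every TPM scale tested, at -0.35 without centring (adjusted p 0.521) and 0.05 with centring (adjusted p 0.936), while CHML was called lower on each. Called lower on counts with PMA was also RABGGTA, the transferase alpha subunit (-0.99 ± 0.17), while RABGGTB, the beta subunit, rose (0.44 ± 0.08; -0.04 on the uncentred TPM scale). Exchange factors rose in 7 and fell in 13 of 30 tested with PMA, and rose in 6 and fell in 8 with As2S2. ANKRD27, counted in this list, fell with As2S2 (-0.57 ± 0.08, adjusted p 3.07e-05) and PMA (-1.13 ± 0.08, adjusted p 3.94e-09). HPS1, part of the exchange factor of RAB32 and RAB38, fell with As2S2 (-0.59 ± 0.08, adjusted p 2.68e-05).

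Activating proteins fell in 15 (45.5%) and rose in 4 (12.1%) of 33 tested with PMA (median -0.30), against 31.1% and 30.8% of all genes. With As2S2 (median 0.03), 8 rose (24.2%) and 3 fell (9.1%), against 20.3% and 19.6% of all genes. This As2S2 balance turned to 2 higher and 4 lower on the uncentred TPM scale (median -0.09). TBC1D5, which acts on RAB7, fell with both (-1.01 ± 0.12 and -1.08 ± 0.12). Effectors fell in 18 and rose in 5 of 30 with PMA (median -0.39), and rose in 6 and fell in 6 with As2S2. SYTL4, also called granuphilin and a RAB27 effector, was 7.15 ± 0.324 CPM in control and rose to 12.7 ± 0.933 with As2S2 (0.82 ± 0.12, adjusted p 5.31e-05) and to 21.3 ± 2.27 with PMA (1.57 ± 0.12, adjusted p 8.21e-09). RAB11FIP1 and RAB11FIP2, which bind RAB11, fell with PMA (-1.23 ± 0.10 and -2.42 ± 0.28), while RAB11FIP4 rose (2.40 ± 0.41; 0.84 on the uncentred TPM scale).

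Of 21 granule biogenesis genes, 9 rose (42.9%) and 4 fell (19.0%) with PMA, against 30.8% and 31.1% of all genes. With As2S2, 2 rose (9.5%) and 4 fell (19.0%), against 20.3% and 19.6% of all genes. AP3B1 and AP3D1, subunits of the adaptor that sorts granule cargo, fell with PMA (-1.11 ± 0.12 and -0.96 ± 0.07), and BLOC1S1 and BLOC1S2 rose (0.89 ± 0.09 and 0.87 ± 0.10). Of 18 genes of the fusion machinery in platelet secretion, 10 rose and 2 fell with PMA and 9 rose and 2 fell with As2S2. VAMP8, the main vesicle SNARE of platelet release, stood at 171 ± 6.92 CPM in the untreated libraries. It rose to 253 ± 5.84 under As2S2 and 240 ± 14 under PMA (a PMA change of 0.006 on the uncentred TPM scale). STXBP5 fell with As2S2 and PMA (-0.66 ± 0.09 and -0.94 ± 0.09).

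Markers of other lineages were measured beside these changes. The summed level of 10 erythroid markers was 3118 to 3573 CPM in control, 4355 to 4710 in As2S2 and 19266 to 20591 in PMA libraries, with HBZ at 0 in all groups. The 10 monocyte and macrophage markers summed to 307 to 347, 341 to 392 and 746 to 760 CPM, with C1QB at 0 in all groups. Most of the latter sum was CD68, a lysosomal protein of macrophages, at 264 ± 19.8, 317 ± 28.1 and 682 ± 9.41 CPM. LYZ was 29.8 ± 0.575 in control and 49.9 ± 2.92 in PMA libraries, while ITGAM was 17.3 ± 0.82 in control and 4.69 ± 0.643 in PMA libraries and CD14 stood at 1.25 ± 0.267 and 1.02 ± 0.37 CPM, so the monocyte markers did not move together. Their part in the RAB changes was not tested.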

How the data were processed

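Poly(A) RNA was measured in 9 MEG-01 libraries (NEBNext Ultra II kit, per the labels), grouped by sample labels. The submitters' processing notes name fastp 0.22.0, DESeq2 and zebrafish genome builds, and the organism label of 1 control is not human, although all IDs in the tables are human Ensembl IDs. Of the aligner, counter, strand setting and annotation, none is given in the sources used here, and reads from antisense partners cannot be told apart. Per the file headers, the authors deposited estimated counts and TPM per library, and for each treatment a fold ratio, a log2 fold change and p-values. Between 89.913% and 91.422% of count values per library were whole within 1e-06; counts were rounded. Genes passing filterByExpr (14592) were scaled by TMM, and all 9 libraries were fitted together with edgeR 4.0.16 in R 4.3.3 (quasi-likelihood test, Benjamini-Hochberg over all genes tested, threshold 0.05). CPM are TMM-scaled; errors are SD (CPM, TPM, ratios) or SE (log2 fold changes). Pair ratios used counts + 0.5. Symbols and gene types came from gene tables and GENCODE 29, promoters from RefSeq.

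Members and lists were chosen with earlier results of these data known. Named members are RAB27A, RAB27B, RAB32 and RAB38, the 8 with the highest TPM, up to 6 each way with the largest called changes per comparison, the 2 on either side of the threshold, and up to 3 each way per pathway list; other members are named from counts of calls after their values were seen. Alternatives were other scalings, DESeq2 1.42.0, limma 3.58.1 (voom, and on log2 TPM with pseudocounts of 1 and 0.1), other filters, only the groups compared, a replicate block and each library left out. Centred TPM and TPM ratios were added after seeing the data. The fit was also run on simulated counts with few changed genes, balanced in direction, and a common spread. That setting is unlike these data, where many genes changed, so it does not check the scaling.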

Additional observations from a re-analysis of the deposited data

How the results depend on the processing

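Scaling by RLE or upper quartiles, DESeq2, limma-voom, other filters and a fit of only the groups compared moved no count of called members by more than 1.5 times. In the fit of only As2S2 and control libraries, however, 11 members were higher and 10 lower. There 52.4% of member calls were higher, against 47.4% of all calls. In the main fit these shares were 61.5% and 50.9%. On log2 TPM without centring (pseudocounts 1 and 0.1), 7 and 6 members were higher with As2S2, 7 and 7 higher and 21 and 22 lower with PMA, and 20 and 20 higher and 9 and 9 lower between As2S2 and PMA. With TPM centred on the median gene, 10 were higher with As2S2. Leaving out 1 library each gave 12 to 16 higher and 6 to 12 lower with As2S2 (20 to 27 in all, 6 lower without As2S2 replicate 2), 22 to 27 higher and 7 to 8 lower with PMA (29 to 35), and 11 to 15 higher and 21 to 23 lower between them (32 to 38). Without both control replicate 2 and As2S2 replicate 1 the counts were 16 and 12, 29 and 7, and 15 and 24.

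Directions of named members changed on log2 TPM without centring, with pseudocounts 1 and 0.1 in that order. With As2S2, RAB2A was -0.197 and -0.199 and RAB7A -0.066 and -0.067. With PMA, RAB1B was -0.267 and -0.27, RAB2A -0.017 and -0.017, RAB32 -0.315 and -0.32, RAB5A -0.162 and -0.178, RAB5C -0.064 and -0.065, RAB6B -0.329 and -0.333, and RAB7A -0.096 and -0.097. Between As2S2 and PMA, RAB18 was 0.125 and 0.13, RAB27B -0.034 and -0.112, RAB32 0.138 and 0.14, and RAB7A 0.03 and 0.03. Centred TPM gave -0.094 for RAB2A with As2S2 and -0.407 for RAB27B between As2S2 and PMA. RAB32 with As2S2 ran from -0.084 to 0.009 when 1 library was left out, 0.009 without control replicate 2, and was 0.0 without both libraries. The TPM scale carries the shift of all genes given with the counts of calls; the cause of the other changes was not tested.

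Calls near the threshold were lost or gained in some settings. Leaving out 1 library or another lost the calls of 9 members with As2S2 (RAB10, RAB15, RAB18, RAB23, RAB24, RAB33A, RAB33B, RAB44 and RAB5A), 5 with PMA (RAB14, RAB21, RAB28, RAB5A and RAB6B) and 4 between As2S2 and PMA (RAB24, RAB27B, RAB32 and RAB37). It added calls for 5 with As2S2 (RAB11B, RAB14, RAB38, RAB40C and RAB9A), 4 with PMA (RAB1B, RAB32, RAB35 and RAB4B) and 4 between them (RAB18, RAB1B, RAB43 and RAB5C). RAB27B between As2S2 and PMA had adjusted p 0.131 without As2S2 replicate 3 or PMA replicate 1, and RAB44 with As2S2 0.153 without control replicate 1.

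Replicate numbers are shared between groups. Deviations from group means correlated from -0.073 to 0.149 between same-numbered libraries, against -0.215 to 0.149 between libraries of other numbers. The labels do not say whether a number marks a shared culture or batch, and these correlations cannot tell. With the replicate number as a block, 15 members rose and 10 fell with As2S2, 27 and 7 with PMA, and 14 and 23 were higher and lower between them, and not every library correlated best with its own number. Members under about 1 CPM in a group rest on few counts there, which limits their folds. Examples were RAB27B in control and RAB39B in PMA libraries, with 15 counts each.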
